A study of Mus musculus with 8 samples.

Results

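Neurotrophins, the ligands of the glial cell line-derived neurotrophic factor (GDNF) family, their receptors and the neuropeptide cholecystokinin were examined in fibro/adipogenic progenitors (FAPs), the mesenchymal cells of skeletal muscle that can give rise to fat and fibrous tissue. The 9 genes, of 31053 in the files, were *Ntrk2*, *Ntrk3*, *Ngfr*, *Bdnf*, *Ntf3*, *Gdnf*, *Gfra1*, *Gfra2* and *Cck*. They were chosen by name with their measured levels (CPM, counts scaled to the size of the library) in both cell states already known, so the comparison of the cell states is a description for them and carries no test. Only 4 of the 9 (*Ntrk2*, *Bdnf*, *Gfra1* and *Cck*) had enough counts to pass the filter on low counts.

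The cells came from hind limb muscles of *mdx* mice (strain C57BL/10ScSn-Dmdmdx/J, 45 days old), which lack dystrophin through a mutation in *Dmd* and whose muscle degenerates and regenerates. All samples carried this mutation and there was no healthy control. FAPs were separated by high or low SCA-1 on their surface, kept for 5 days in growth medium with serum and not induced to differentiate, which gave 4 replicates of each state, the SCA1-Low-FAPs being the study's control state. Both states were obtained from 4 mice according to the design, but the labels do not say which samples share a mouse. The libraries were 3′ mRNA libraries, in which reads come from the end of each transcript, so a CPM is a level per transcript whatever the transcript's length.

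Neurotrophins are secreted proteins that act on Trk receptor tyrosine kinases and on the low-affinity receptor encoded by *Ngfr*. Brain-derived neurotrophic factor (*Bdnf*) acts mainly on TrkB (*Ntrk2*) and neurotrophin-3 (*Ntf3*) mainly on TrkC (*Ntrk3*). GDNF binds a co-receptor of the GFR alpha group anchored in the membrane, and the pair then engages the kinase RET or the adhesion molecule NCAM. In muscle these factors are best known for the survival and wiring of motor and sensory neurons, and cholecystokinin for its actions in gut and brain through 2 receptors.

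Promoter sequences from RefSeq on GRCm38, from 250 bases before to 50 bases after each start, were found for 7 of the 9 genes, and there were 15 in all. Those of *Ntrk2*, *Ngfr* and *Cck* are shown because the values of these genes did not overlap between the cell states. Of the 7 promoters of *Bdnf*, the fourth such gene, the one shown is the only one that held the letters TGACG. Each is written 5′ to 3′ on the strand of its gene, with capitals for the GC box GGGCGG in *Ntrk2* and *Ngfr* and for TGACG, the shorter core of the cyclic AMP response element TGACGTCA, in *Bdnf* and *Cck*, each read on either strand.
Ntrk2 (chr13:58806319-58806618, plus strand): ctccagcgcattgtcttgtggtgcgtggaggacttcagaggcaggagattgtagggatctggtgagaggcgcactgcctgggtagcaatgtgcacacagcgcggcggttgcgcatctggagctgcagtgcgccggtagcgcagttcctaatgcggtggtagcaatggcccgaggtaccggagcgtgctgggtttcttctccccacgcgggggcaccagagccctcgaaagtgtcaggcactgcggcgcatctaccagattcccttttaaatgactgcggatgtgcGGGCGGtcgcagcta
Ngfr (chr11:95587649-95587948, minus strand): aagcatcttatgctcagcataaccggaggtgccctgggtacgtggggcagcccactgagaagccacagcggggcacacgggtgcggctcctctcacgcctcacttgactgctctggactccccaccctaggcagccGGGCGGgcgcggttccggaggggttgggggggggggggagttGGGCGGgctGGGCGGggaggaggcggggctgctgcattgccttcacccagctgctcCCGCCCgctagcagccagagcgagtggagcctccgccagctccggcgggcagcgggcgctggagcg
Bdnf (chr2:109692186-109692485, plus strand): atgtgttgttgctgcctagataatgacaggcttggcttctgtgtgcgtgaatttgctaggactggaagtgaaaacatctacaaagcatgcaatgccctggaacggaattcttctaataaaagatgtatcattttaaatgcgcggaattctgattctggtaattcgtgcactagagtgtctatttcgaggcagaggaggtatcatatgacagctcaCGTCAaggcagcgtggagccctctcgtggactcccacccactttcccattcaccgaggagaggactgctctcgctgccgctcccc
Cck (chr9:121495645-121495944, minus strand): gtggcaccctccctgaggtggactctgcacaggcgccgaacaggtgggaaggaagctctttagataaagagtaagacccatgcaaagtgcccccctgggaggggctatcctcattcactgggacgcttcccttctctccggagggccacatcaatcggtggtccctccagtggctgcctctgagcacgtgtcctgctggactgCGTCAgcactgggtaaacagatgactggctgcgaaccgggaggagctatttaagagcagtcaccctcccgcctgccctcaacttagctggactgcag
In *Cck* the letters TGACG began 47 bases before the start, on the reverse strand. In *Bdnf* they began 35 bases before the start, also on the reverse strand, and 1 of the 2 *Gdnf* promoters held them 50 bases before its start. Of the 32851 promoters of the same length, 20.8% held TGACG and 1.79% the full TGACGTCA, which none of the 15 held. The GC box occurred in 35.7% of all promoters, 4 times in that of *Ngfr* (114, 72, 63 and 16 bases before the start) and once in that of *Ntrk2*, 35 bases after the start. GC boxes also occurred in *Bdnf* promoters that are not shown and in those of *Ntf3*, so they were not confined to *Ngfr* and *Ntrk2*. These matches describe letters and not bound sites.

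The libraries held 1880561 to 3985656 counts on genes, so that 3 counts corresponded to 0.792 to 1.63 CPM. The FAP markers *Pdgfra*, *Dcn* and *Col3a1* were present in all 8 samples, and *Pax7*, *Myf5*, *Myod1* and *Myog*, the defining genes of muscle stem cells and myoblasts, had no count. On the same list of 6 markers, *Cdh15* had 1 count and *Itga7* had 44. The level of *Itga7* was 0 to 5.18 CPM in SCA1-High-FAPs and 0 to 9.80 CPM in SCA1-Low-FAPs. mRNA of *Ly6a*, the gene for SCA-1, went against the sort labels after culture, with 711 ± 184 CPM (SD, n = 4) in SCA1-High-FAPs against 1087 ± 58.8 in SCA1-Low-FAPs (edgeR adjusted p = 0.0341). SCA1-Low-FAPs replicate 3 stood apart from its group, with summed adipocyte markers (8 genes, such as *Adipoq*, *Plin1* and *Fabp4*) of 642 CPM beside 119 to 253 in the other SCA1-Low-FAPs and 1061 to 5580 in SCA1-High-FAPs. Of 10181 genes tested, 7.68% passed both thresholds (an edgeR adjusted p under 0.05 and more than 0.5 of log2 fold change in either direction), with 4.36% higher in SCA1-High samples and 3.32% higher in SCA1-Low samples, and in 14.1% the CPM of the cell states did not overlap.

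Among the 9 genes, the contrast they were selected on put *Ntrk2* past both thresholds as higher in SCA1-High-FAPs, and *Bdnf* and *Cck* as higher in SCA1-Low-FAPs. These were 3 of the 4 genes that could be fitted, beside 7.68% of all tested genes, and nothing is read from that count because the genes were selected on this contrast. The CPM of the states did not overlap in 4 of the 9 genes (*Ntrk2*, *Ngfr*, *Bdnf* and *Cck*). Of the 4 genes that passed the filter this held for 3, beside 14.1% of all tested genes, and nothing is read from that count for the same reason. The receptor and its main ligand were thus at their higher level in opposite cell states. *Ngfr* lay on the side of *Ntrk2*, but had too few counts to pass the filter. *Gfra1*, *Gdnf*, *Gfra2* and *Ntrk3* overlapped between the states. *Ntf3* was at the limit of detection.

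**Figure D1:**
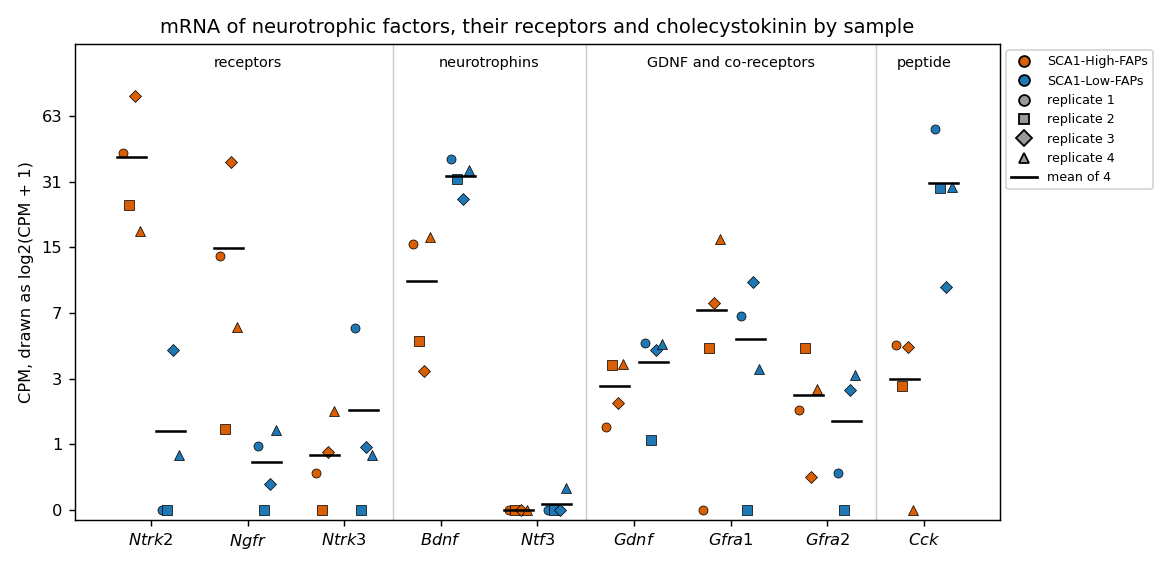
Level of each of the 9 genes in each sample, as CPM on an axis of log2(CPM + 1), with orange for SCA1-High-FAPs, blue for SCA1-Low-FAPs, a symbol for each replicate number and a bar for the mean of 4. *Ntrk2* lies between 18.0 and 78.1 CPM in SCA1-High samples and at or under 4.44 CPM in SCA1-Low samples, *Cck* and *Bdnf* are separated in the other direction, and *Gdnf*, *Gfra1* and *Gfra2* overlap.

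*Ntrk2* (ENSMUSG00000055254, chromosome 13, 58806569 to 59133970, plus strand, GRCm38) encodes TrkB, a tyrosine kinase that also has short forms without the kinase domain. SCA1-High-FAPs replicates 1 to 4 had 90, 53, 187 and 49 counts, or 42.4, 24.0, 78.1 and 18.0 CPM. SCA1-Low-FAPs replicates 1 to 4 had 0, 0, 14 and 3 counts, or 0, 0, 4.44 and 0.792 CPM. Every SCA1-High sample was above every SCA1-Low sample, and 14 of the 17 counts of the SCA1-Low-FAPs were in replicate 3. Means were 40.6 ± 27.1 CPM (SD, n = 4) in SCA1-High-FAPs against 1.31 ± 2.12 CPM in SCA1-Low-FAPs, and the log2 fold change, as SCA1-Low over SCA1-High, was -4.70 with a standard error (SE) of 0.82. Summed over samples, the level was 25.6 times as high in SCA1-High-FAPs (95% interval 15.8 to 44.4, for counting error only). Without SCA1-Low-FAPs replicate 3 the log2 fold change was -6.58, and the ratio was 103 with an interval from 34.9 to 501, since 3 counts were left in the SCA1-Low-FAPs. In cultures analysed in bulk, fewer cells with a transcript and less of it per cell cannot be told apart. The annotation (GENCODE M21) gives *Ntrk2* 7 coding transcripts with proteins of 466 to 821 residues and 3′ ends at 6 places that lie far apart. Counts per gene add these up, so they do not say whether the full-length receptor or its short forms were read, and 2 antisense genes overlap it, for which the strand setting of the counting is not given in the sources used here.

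*Ngfr* (chromosome 11, 95568818 to 95587735, minus strand) encodes the receptor that binds all neurotrophins and also their uncleaved precursors. SCA1-High-FAPs had 29, 3, 92 and 16 counts, or 13.7, 1.36, 38.4 and 5.87 CPM. SCA1-Low-FAPs had 2, 0, 1 and 5 counts, or 0.967, 0, 0.317 and 1.32 CPM. The states were set apart by a narrow margin, since SCA1-High replicate 2 lay just above SCA1-Low replicate 4 on 3 and 5 counts. Group means were 14.8 ± 16.5 and 0.651 ± 0.601 CPM, and the fit without a filter gave a log2 fold change of -4.26 (SE 0.78). Over all samples 140 counts stood against 8, a ratio of 20.1 with a counting interval from 9.91 to 47.4.

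*Ntrk2* and *Ngfr* were highest in SCA1-High-FAPs replicate 3, followed by replicate 1. Summed adipocyte markers were 5580, 2057, 2656 and 1061 CPM in SCA1-High-FAPs replicates 1 to 4 and 212, 253, 642 and 119 CPM in SCA1-Low-FAPs replicates 1 to 4, and of 6 tested markers 3 (*Adipoq*, *Lipe* and *Retn*) were called, each higher in SCA1-High-FAPs. Within SCA1-Low-FAPs replicate 3 was highest in both these markers and *Ntrk2*, while *Ngfr* had 1 count there. The part of fat-cell content in either receptor's level was not tested. Schwann cells, which carry *Ngfr*, were represented by 7 markers with summed levels of 11.4 to 20.0 CPM in SCA1-High-FAPs against 7.62 to 11.1 CPM in SCA1-Low-FAPs. Of these markers *Erbb3* and *Foxd3* had no count, *Sox10* had 1 count in each of 2 SCA1-High samples, and *S100b* was the largest part of the sum in every sample. SCA1-High-FAPs replicate 3, which had the most *Ngfr*, also had the highest sum, with *S100b* at 16.3 CPM and *Mbp* at 3.34 CPM, and the part of these cells in the level of *Ngfr* was not tested.

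**Figure D2:**
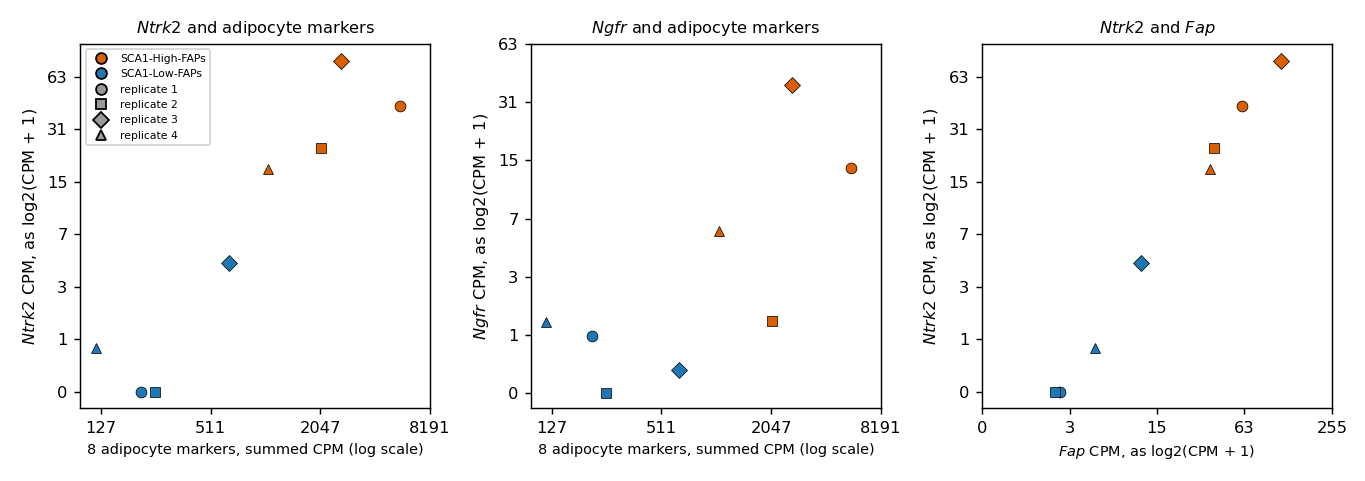
CPM of *Ntrk2* (left) and *Ngfr* (middle) against the summed CPM of 8 adipocyte markers, and of *Ntrk2* against *Fap* (right), with 1 symbol per sample, orange for SCA1-High-FAPs and blue for SCA1-Low-FAPs, all axes on a log2(CPM + 1) scale. The order of samples in *Ntrk2* is that in *Fap* (from 2.18 to 114 CPM), apart from the tie at 0, while the sample with the highest adipocyte markers (5580 CPM) is the second highest in *Ntrk2*.

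*Ntrk3* (chromosome 7, 78175959 to 78738012, minus strand), which encodes TrkC, had 1, 0, 2 and 5 counts in SCA1-High-FAPs against 12, 0, 3 and 3 counts in SCA1-Low-FAPs. The levels were 0.471, 0, 0.835 and 1.83 CPM and 5.80, 0, 0.952 and 0.792 CPM, and the states overlapped. In SCA1-High-FAPs *Ntrk2* and *Ntrk3* together had 53 to 189 counts per sample, of which *Ntrk2* made up 97.1% ± 4.3 (SD, n = 4). In SCA1-Low-FAPs they had 0 to 17 counts, too few to read a share from. TrkB was thus far ahead of TrkC in the mRNA of SCA1-High-FAPs.

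*Bdnf* (ENSMUSG00000048482, chromosome 2, 109674700 to 109727007, plus strand) was above *Ntf3* in all 8 samples. SCA1-High-FAPs had 33, 11, 8 and 46 counts, or 15.5, 4.97, 3.34 and 16.9 CPM. SCA1-Low-FAPs had 82, 59, 81 and 133 counts, or 39.6, 32.1, 25.7 and 35.1 CPM. The groups did not overlap, and the SCA1-High samples fell into a lower pair (replicates 2 and 3) and a higher pair (replicates 1 and 4). Means were 10.2 ± 7.01 and 33.1 ± 5.85 CPM (SD, n = 4), with a log2 fold change of 1.69 (SE 0.41). With each sample left out in turn it ran from 1.39 to 2.07, and the thresholds were no longer passed without SCA1-Low-FAPs replicate 1 or without replicate 4. The 11 coding transcripts of *Bdnf* share 1 3′ end, so the 3′ libraries cannot tell its alternative promoters apart, and the antisense gene *Gm45346* overlaps it.

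*Ntf3* (chromosome 6, 126101412 to 126166910, minus strand) had a single count, in SCA1-Low-FAPs replicate 4, and no fold change is given. In the other 7 samples 0 counts allow a level of up to 0.952 to 1.63 CPM. *Ntf5* (neurotrophin-4, which also acts on TrkB) had 7 counts in all.

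The other genes of the neurotrophin system, 20 in all, cover a ligand, sortilin-type receptors, adaptors and proteases, and 13 of them were tested. Of these 2 passed both thresholds, both higher in SCA1-High-FAPs, and the median log2 fold change was -0.15 beside 0.00 for all tested genes. *Sort1* encodes sortilin, the co-receptor of *Ngfr* for precursor neurotrophins. It had 47.1, 52.4, 63.5 and 18.0 CPM in SCA1-High-FAPs against 12.1, 16.3, 12.4 and 7.13 CPM in SCA1-Low-FAPs. The groups were apart, with SCA1-High replicate 4 close to the SCA1-Low samples, and the log2 fold change was -1.94 (SE 0.37, edgeR adjusted p = 0.00339). It passed with any 1 sample left out. *Pcsk5*, which encodes a proprotein convertase, had 57.0 to 90.9 CPM in SCA1-High-FAPs against 9.18, 11.4, 44.4 and 12.1 CPM in SCA1-Low-FAPs, giving a log2 fold change of -1.81 (SE 0.44, edgeR adjusted p = 0.0290). This call was lost without a filter (adjusted p = 0.0682) and whenever a sample other than SCA1-High-FAPs replicate 2 or SCA1-Low-FAPs replicate 3 was left out. The other tested adaptors and convertases had log2 fold changes between -0.46 (*Frs2*) and 0.45 (*Pcsk7*), and none passed. *Furin*, the convertase best known for cleaving precursor neurotrophins, had 176 ± 34.9 and 149 ± 27.2 CPM.

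The GDNF family members among the 9 genes were low in both cell states. *Gdnf* (chromosome 15, 7810846 to 7837575, plus strand) had 3, 8, 5 and 10 counts in SCA1-High-FAPs against 10, 2, 14 and 18 in SCA1-Low-FAPs. The levels were 1.41, 3.62, 2.09 and 3.67 CPM and 4.83, 1.09, 4.44 and 4.75 CPM, so 3 SCA1-Low samples lay above every SCA1-High sample and the fourth below them all. *Gfra1*, the main co-receptor of GDNF (chromosome 19, 58235604 to 58455909, minus strand), had 0, 10, 19 and 45 counts in SCA1-High-FAPs against 14, 0, 32 and 13 in SCA1-Low-FAPs. At 0, 4.52, 7.93 and 16.5 CPM beside 6.77, 0, 10.1 and 3.43 CPM, each state held 1 sample without a count, and the log2 fold change of -0.50 had an SE of 0.94. Its sign turned to 0.31 without SCA1-High-FAPs replicate 4. *Gfra2*, the co-receptor of neurturin (chromosome 14, 70890120 to 70979838, plus strand), had 4, 10, 1 and 7 counts in SCA1-High-FAPs against 1, 0, 8 and 12 in SCA1-Low-FAPs. Its levels of 0.418 to 4.52 CPM and 0 to 3.17 CPM overlapped. *Gdnf* and *Gfra2* did not pass the filter. *Gfra1* differed between replicates of a state by more than counting error, with 0 and 45 counts in SCA1-High-FAPs replicates 1 and 4. No difference is read from these 3 genes, and the overlap does not show that the states were alike.

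Of 10 further genes of the GDNF system 5 were tested and 2 passed. *Ncam1*, an adhesion molecule that can serve as a signalling receptor for GDNF, was higher in SCA1-Low-FAPs, at 324, 246, 321 and 353 CPM beside 133, 204, 149 and 248 CPM in SCA1-High-FAPs. The states overlapped in 1 pair of samples, and the log2 fold change was 0.76 (SE 0.19, edgeR adjusted p = 0.0190), which was lost when SCA1-High replicate 1 or 3 or SCA1-Low replicate 1 or 4 was left out. *Gas1*, which encodes a membrane protein related to the GFR alpha group, was higher in SCA1-High-FAPs, at 899 ± 144 CPM beside 331 ± 167 CPM. Its log2 fold change was -1.44 (SE 0.28, edgeR adjusted p = 0.0108), lost without SCA1-High-FAPs replicate 3. *Ret*, the signalling kinase of the family, had 4, 11, 8 and 2 counts in SCA1-High-FAPs against 3, 18, 19 and 26 in SCA1-Low-FAPs, and did not pass (log2 fold change 1.15, SE 0.69, edgeR adjusted p = 0.376). *Gfra4* made up 56.7% ± 23.0 of the GFR alpha counts in SCA1-High-FAPs, with 10.7 ± 4.62 CPM beside 3.15 ± 2.85 CPM, and did not pass although the states did not overlap (edgeR adjusted p = 0.126). *Gdf15*, a ligand of the distant family receptor GFRAL, had 21.1 ± 12.8 and 64.4 ± 29.2 CPM with an adjusted p of 0.0668 in edgeR, and passed in DESeq2 (adjusted p = 0.00299). *Gfra3*, *Gfral* and the ligand *Pspn* had no count in any sample.

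*Cck* (ENSMUSG00000032532, chromosome 9, 121489824 to 121495694, minus strand), which encodes the cholecystokinin precursor, was at a higher level in SCA1-Low-FAPs. SCA1-High-FAPs had 10, 6, 11 and 0 counts, or 4.71, 2.71, 4.59 and 0 CPM. SCA1-Low-FAPs had 114, 53, 30 and 111 counts, or 55.1, 28.9, 9.52 and 29.3 CPM. The groups did not overlap, and SCA1-Low replicate 3, the sample with the most adipocyte markers of its group, was the lowest of the SCA1-Low samples. Means were 3.0 ± 2.20 and 30.7 ± 18.7 CPM (SD, n = 4) with a log2 fold change of 3.36 (SE 0.68). It ran from 2.91 to 3.67 with each sample left out in turn. Neuronal markers overlapped between the states, at 2.93 to 6.33 CPM summed over 7 genes in SCA1-High-FAPs against 2.72 to 12.1 CPM in SCA1-Low-FAPs. *Nefm*, with 104 counts over the 8 samples, was the only one of them to pass the filter, and no other had more than 5 counts. Pericyte and smooth muscle markers were 22.6 to 33.9 CPM over 6 genes in SCA1-High-FAPs against 59.9, 68.6, 23.5 and 52.3 CPM in SCA1-Low-FAPs replicates 1 to 4, with *Myh11* and *Cspg4* called higher in SCA1-Low-FAPs and *Notch3* in SCA1-High-FAPs. Summed over these markers, SCA1-Low replicate 3 was the lowest of its group, as it was in *Cck* and *Bdnf*. *Myh11* (11.1 CPM) and *Cspg4* (2.54 CPM) were lowest of the group there, but *Rgs5* (4.12 CPM) and *Notch3* (5.71 CPM) were highest. The part of these markers in the levels of *Cck* and *Bdnf* was not tested.

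Neither cholecystokinin receptor, *Cckar* or *Cckbr*, had a count in any sample, which allows at most 0.792 to 1.63 CPM per sample. Of 9 further genes of the cholecystokinin system 4 were tested, all of them processing enzymes, and 1 passed. *Cpe*, the carboxypeptidase that trims peptide hormones after cleavage, was higher in SCA1-Low-FAPs, at 138, 118, 72.0 and 116 CPM beside 51.8, 71.0, 45.5 and 45.8 CPM in SCA1-High-FAPs. SCA1-Low replicate 3 was the lowest of its group here as well, only just above the highest SCA1-High sample. The log2 fold change was 1.05 (SE 0.22, edgeR adjusted p = 0.00666) and passed with any 1 sample left out. *Pam*, the enzyme that amidates peptide ends, had 209 ± 33.6 and 187 ± 23.0 CPM, and the sulphotransferases *Tpst1* and *Tpst2* had log2 fold changes of -0.26 and 0.23, none of which passed. The convertases of neuroendocrine granules, *Pcsk1* and *Pcsk2*, did not reach the filter, with means of at most 0.683 CPM.

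**Figure D3:**
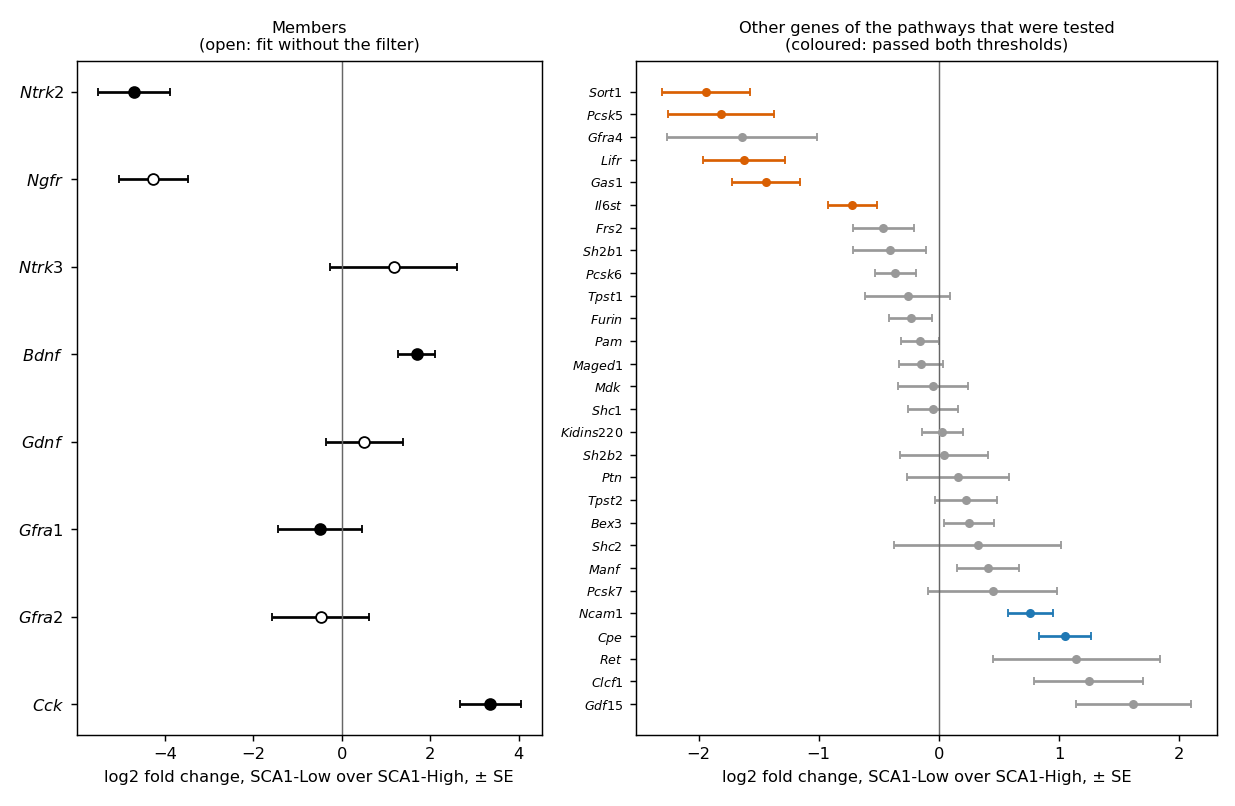
Log2 fold change, SCA1-Low over SCA1-High, with its SE, for 8 of the 9 genes (left, open symbols from the fit without a filter) and for the 28 other pathway genes that were tested (right). Orange (*Sort1*, *Pcsk5*, *Lifr*, *Gas1* and *Il6st*) and blue (*Ncam1* and *Cpe*) mark the 7 genes past both thresholds.

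Among 11 other neurotrophic factors and receptors 6 were tested and 2 passed. *Lifr*, the receptor of leukaemia inhibitory factor, was higher in SCA1-High-FAPs, at 111 ± 33.5 CPM beside 35.5 ± 19.5 CPM, with a log2 fold change of -1.62 (SE 0.34, edgeR adjusted p = 0.0134). *Il6st*, the signalling chain that *Lifr* shares with other cytokine receptors, was also higher there, at 612 ± 133 and 371 ± 119 CPM, a log2 fold change of -0.72 (SE 0.20, edgeR adjusted p = 0.0406). *Clcf1*, a neurotrophic cytokine, had 6.18 ± 3.29 and 14.7 ± 2.62 CPM and did not pass (edgeR adjusted p = 0.108). *Lif* had no count. *Manf*, *Mdk* and *Ptn* had log2 fold changes of 0.41, -0.05 and 0.16 and did not pass. The call of *Lifr* was lost without SCA1-Low-FAPs replicate 1 or 4. Among the fits with 1 sample left out, the call of *Il6st* was kept only without SCA1-High-FAPs replicate 1 or SCA1-Low-FAPs replicate 3. Over the 4 lists of 50 genes, 28 were tested and 7 passed, beside 7.68% of all tested genes. Of the 7, 5 were higher in SCA1-High samples and 2 higher in SCA1-Low samples, beside 4.36% and 3.32% of all tested genes. The median log2 fold change was -0.05. Nothing is read from these counts or from those of the single lists, because the lists were chosen with earlier results of these data known.

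**Figure D4:**
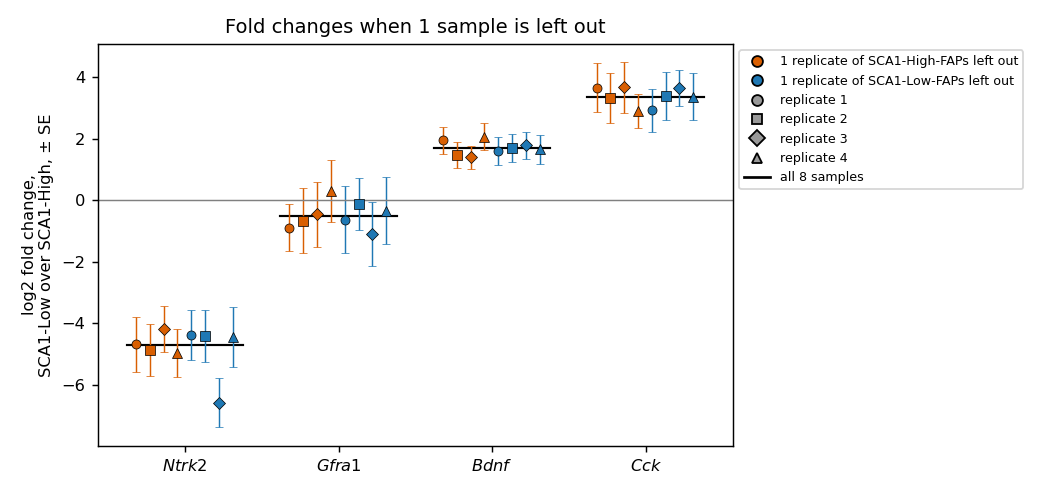
Log2 fold change with SE of the 4 genes that passed the filter, with 1 sample left out at a time (orange, a SCA1-High sample left out; blue, a SCA1-Low sample left out; the symbol gives the replicate) and with all 8 samples (black line). *Ntrk2* stays at or below -4.19 and *Bdnf* and *Cck* at or above 1.39, while *Gfra1* lies on both sides of 0.

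In SCA1-High-FAPs the order of mean levels was *Ntrk2* (40.6 CPM), *Ngfr* (14.8), *Bdnf* (10.2), *Gfra1* (7.24), *Cck* (3.0), *Gdnf* (2.70), *Gfra2* (2.35), *Ntrk3* (0.785) and *Ntf3*. In SCA1-Low-FAPs it was *Bdnf* (33.1 CPM), *Cck* (30.7), *Gfra1* (5.09), *Gdnf* (3.78), *Ntrk3* (1.89), *Gfra2* (1.55), *Ntrk2* (1.31), *Ngfr* (0.651) and *Ntf3*. In both orders the samples of each gene overlapped those of its neighbour, so single steps were within the spread. The highest mean was that of *Ntrk2* in SCA1-High-FAPs and that of *Bdnf* in SCA1-Low-FAPs. The lead of *Bdnf* over *Cck* was not resolved, since *Cck* was above it in SCA1-Low replicate 1 (55.1 against 39.6 CPM). Over all samples *Bdnf*, with a mean of 21.7 CPM, lay above 37.9% of tested genes, and *Ntrk2*, with 21.0 CPM, above 36.8%.

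Of all other tested genes, the one most like *Ntrk2* over the 8 samples in log2 CPM was *Fap* (Pearson r = 0.998), which encodes fibroblast activation protein. *Fap* had 60.3, 38.4, 114 and 36.3 CPM in SCA1-High-FAPs against 2.42, 2.18, 11.4 and 5.02 CPM in SCA1-Low-FAPs. *Kng1* (r = 0.998) and *Rnf125* (0.997) followed, and *Kng1* has a close paralogue with which it can share reads. With the mean of each cell state removed, *Fap* (0.989), *Kng1* (0.988) and *Trmt10c* (0.985) were nearest to *Ntrk2*. For *Bdnf* the nearest included *Thyn1* and *Mtpn* (0.982 and 0.979), and with the state means removed *Aar2*, *Pde8b* and *Aurka* (0.977, 0.971 and 0.967). For *Cck* they were *Ybx3*, *Exoc3* and *Larp7* (0.986, 0.985 and 0.981), and with the state means removed *Insig1*, *Ehd2* and *Stom* (0.994, 0.974 and 0.974). *Gfra1* was nearest to *Arl13b*, *Cdkn2a* and *Slc25a38* (0.955, 0.951 and 0.95), and with the state means removed to *Casc4*, *Arl13b* and *Slc25a38* (0.962, 0.959 and 0.955). *Fap* and *Kng1* were the genes that led both lists of *Ntrk2*, whereas none of the genes named for *Bdnf* or *Cck* stayed among their nearest once the difference between the states was removed. These values come from a search over all tested genes in 8 samples that share library and depth, and they describe likeness only. Between the members themselves, r with the state means removed was -0.47 for *Bdnf* and *Ntrk2*, -0.27 for *Bdnf* and *Cck* and -0.09 for *Ntrk2* and *Cck*.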

How the data were processed

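RNA of 8 cultures was sequenced from 3′ mRNA libraries. After trimming, the authors used STAR for alignment to mm10 and htseq-count for assigning uniquely aligned reads to Ensembl 93 genes, and the deposited values are these raw counts per gene, with no normalisation. The strand setting is not given in the sources used here. Reads on no gene (13.3% to 16.4%) were left out. Gene names and positions came from GENCODE M21 on GRCm38, by identifier.

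CPM were computed with TMM factors. The contrast of SCA1-Low with SCA1-High samples was fitted with edgeR 4.0.16 (R 4.3.3, robust quasi-likelihood test) on all 8 samples, after filterByExpr (at least 10 counts in enough samples, 15 in total), with Benjamini-Hochberg adjustment over 10181 genes. Adjusted p-values are those of edgeR except where DESeq2 1.42.0 is named. The study defines biological replicates as cells of different mice, but the mouse behind each sample is not given in the sources used here. Limits and intervals (95%, 3 counts for a count of 0) cover counting error only. The script was tested on simulated data. The 9 genes, the pathway and marker lists and the tests were chosen with earlier results of these data known. Named were all 9 genes, the pathway genes that passed, those ligands and receptors with at least 10 counts in every sample, the receptors needed for signalling, and up to 3 genes most like each tested member. A few genes of these lists are not reported here. Alternatives were DESeq2, RLE factors, 2 other filters, the replicate number as a block, an adjusted p under 0.01 and each sample left out.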

Additional observations from a re-analysis of the deposited data

Results flagged for a closer look

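In 28 groups of 4 values with enough counts, 3 held a sample set apart from the other 3 beyond Dixon's 95% limit, and chance alone gives about 1 in 20 groups. *Ntrk3* was at 5.80 CPM in SCA1-Low-FAPs replicate 1 (12 counts), above 0 to 0.952 CPM in the others. *Gdnf* was low in SCA1-Low-FAPs replicate 2, at 1.09 CPM (2 counts) beside 4.44 to 4.83 CPM. *Pcsk5* was at 44.4 CPM in SCA1-Low-FAPs replicate 3 beside 9.18 to 12.1 CPM in the other SCA1-Low-FAPs, in the sample that also had the highest *Ntrk2* and adipocyte markers of its group.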

How the results depend on the processing

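Over the alternatives run, 782 genes passed in the analysis as reported, 784 with RLE factors, 1070 in DESeq2, 1052 without a filter, 729 with at least 10 counts in every sample, 307 at an adjusted p under 0.01, and 410 to 1017 with 1 sample left out (410 without SCA1-Low-FAPs replicate 4, 417 without replicate 1, 1017 without replicate 3). Of the 9 genes 3 passed as reported, 1 at 0.01, 4 in DESeq2 and without a filter (*Ngfr* added), and 3 to 4 with 1 sample left out. With at least 10 counts in every sample the number was 0 because none of the 9 genes met that filter. These numbers are a description and no support, since the 9 genes were selected on this contrast. Of the 50 other pathway genes 7 passed as reported, 2 at 0.01, 8 in DESeq2, 6 without a filter, and 3 to 8 with 1 sample left out (3 without SCA1-Low-FAPs replicate 1, its replicate 4 or SCA1-High-FAPs replicate 3, and 8 without SCA1-Low-FAPs replicate 3). No called value changed sign. The replicate number as a block gave 697 genes, 3 of the 9 and 8 pathway genes, with *Gdf15* added. Between samples of equal number the mean correlation of the deviations from the group means was -0.02, and 0 samples correlated best with their own number. This gives no sign of pairing, but cannot tell whether equal numbers share a mouse, whose effect may be small. Depth limits the genes under 10 counts, *Ntrk3*, *Gdnf*, *Gfra2* and *Ntf3* above all.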
